A study of Mus musculus with 14 samples.

Results

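Antigen carried to the spleen on erythrocytes was compared with the same antigen given free, over both molecular forms in which it was given. The libraries came from OT-I cells, CD8+ T cells whose transgenic receptor recognises the ovalbumin peptide SIINFEKL on the mouse class I molecule. OT-I cells carrying CD45.1 were labelled with the dye CFSE and transferred on day 0 into C57BL/6 recipients carrying CD45.2, with 8 to 12 weeks as the given age. Recipients received 223 pmol of antigen by vein on day 1 (equal to 10 µg of ovalbumin), and on day 4 the viable CD3e+ CD8+ CD45.1+ cells of the spleen were sorted after erythrocyte lysis and bead enrichment. The 6 targeted libraries were 3 of ERY1-OVA, whole ovalbumin joined to a peptide that binds erythrocytes, and 3 of TER119-SIINFEKL, the peptide joined to an antibody-derived carrier that binds the erythroid antigen TER-119. The 5 soluble libraries were 3 of OVA, whole ovalbumin, and 2 of SIINFEKL, the free peptide. Another 3 libraries, named Naive, came from transferred cells in recipients without antigen and serve as the resting level. They enter none of the differences, which use 11 of the 14 libraries of the series. The Naive libraries do add to the estimate of spread behind each p-value and to the mean RPKM by which genes were kept. All groups share the OT-I receptor, so the cells answer 1 epitope with 1 receptor. The targeted and soluble reagents differ in more than binding, since each targeted reagent also carries its ERY1 or TER119 part. Nothing in the labels states that libraries of a group came from separate recipients, and the p-values measure the spread between these libraries.

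The effect of targeting was taken as the mean of the ERY1-OVA and TER119-SIINFEKL group means minus the mean of the OVA and SIINFEKL group means, on the log2 scale of RPKM (reads per kilobase, scaled to library size). Each antigen form had equal weight. A gene was called when its Benjamini-Hochberg adjusted p from limma was under 0.05 over the 9793 genes whose RPKM averaged 1 or more. A called gene was counted as moving the same way in both forms when ERY1-OVA minus OVA (the protein form) and TER119-SIINFEKL minus SIINFEKL (the peptide form) had the same sign and, within each form, every targeted library lay beyond every soluble library. The forms have no library in common. Because genes were chosen by the average, their effects in each form are described and are not independent evidence.

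A T cell that meets its antigen signals through the T cell receptor to calcium and the MAP kinases, and these switch on transcription factors of the EGR, NR4A and IRF families within hours. With costimulation and inflammation the cell goes on to divide and to acquire killing functions. Without them, or when stimulation persists, it may instead become anergic, be deleted, or keep inhibitory receptors such as PD-1 on its surface; EGR2, EGR3 and the NR4A factors are well-known regulators of that outcome. Erythrocytes are cleared in the spleen and liver in large numbers without inflammation, and antigen bound to them has been studied as a means of inducing tolerance. Genes of the resting T cell, such as the interleukin-7 receptor and the transcription factor KLF2, fall when the receptor is engaged.

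The sorted cells had the RNA of CD8+ T cells. Cd8a lay between 247 and 399 RPKM in the 14 libraries and Cd4 between 0.182 and 1.31 RPKM. Zbtb7b, the other CD4 T cell marker measured, was 9.93 RPKM in SIINFEKL replicate 1 and at most 1.48 RPKM in any other library. Summed RPKM of the 2 B cell markers measured of 9 was 17.6 to 22.5 in ERY1-OVA, 15.1 to 21.8 in OVA, 23.8 to 27.5 in TER119-SIINFEKL and 12.8 to 21.5 in SIINFEKL. For the 5 of 7 MHC class II genes the ranges were 19.8 to 23.6, 21.7 to 81.2, 20 to 48.0 and 23.0 to 30.2 in the same order; OVA replicate 1 and TER119-SIINFEKL replicate 1 held the highest values. The 4 macrophage and monocyte markers measured of 14, led by Ly6c2, summed to 179 to 302 in ERY1-OVA, 361 to 418 in OVA, 212 to 290 in TER119-SIINFEKL and 122 to 479 in SIINFEKL. These sums were nearly all Ly6c2, at 113 to 625 RPKM over the 14 libraries. Cd68, Lyz2 and Hmox1 reached at most 10.3, 11.5 and 3.95 RPKM. Between ERY1-OVA and OVA, Cd68 and Lyz2 overlapped, while Hmox1 was higher in OVA (2.63 to 3.13 against 1.18 to 2.27 RPKM). The 2 globin genes measured of 10 erythroid markers were highest in TER119-SIINFEKL replicate 1, at a sum of 20.3 against at most 8.54 in the other antigen libraries. The part of these transcripts in the results below was not tested. The SIINFEKL libraries differed from each other more than those of any other group: the within-group SD of log2 RPKM was 0.416, against 0.226 to 0.255 in the other groups. On the first principal component SIINFEKL replicate 2 lay at -48.3, near the Naive libraries (-61.3 to -55.9), replicate 1 at -11.9, and the other antigen libraries at 21.6 to 30.8. Values without each of them are given beside the results that they changed most.

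Targeting raised 552 genes (5.64% of those tested) and lowered 226 (2.31%) in the average of both forms, and few of them moved the same way with protein and with peptide. Only 43 higher genes (0.439% of those tested) and 29 lower genes (0.296%) met the rule for both forms, 72 in all or 9.25% of the 778 genes called. The higher genes with the largest averaged differences included Nrgn and Xcl1, and the 43 held 3 of 16 receptor-induced transcription factors tested (Egr2, Egr3 and Nr4a3). The lower genes with the largest differences were Igfbp4, Rgmb, Il7r and Wfikkn2, and the 29 held 3 of 22 naive and memory genes tested. Of the 778, 253 (32.5%) had the same sign in both forms, 142 of them higher and 111 lower. Another 205 did not overlap in either form and went opposite ways. A correction for gene length and GC content changed the averaged counts to 553 higher and 383 lower, so that 59.1% instead of 71.0% of calls were higher, while the same-way counts became 52 and 39.

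**Figure D1:**
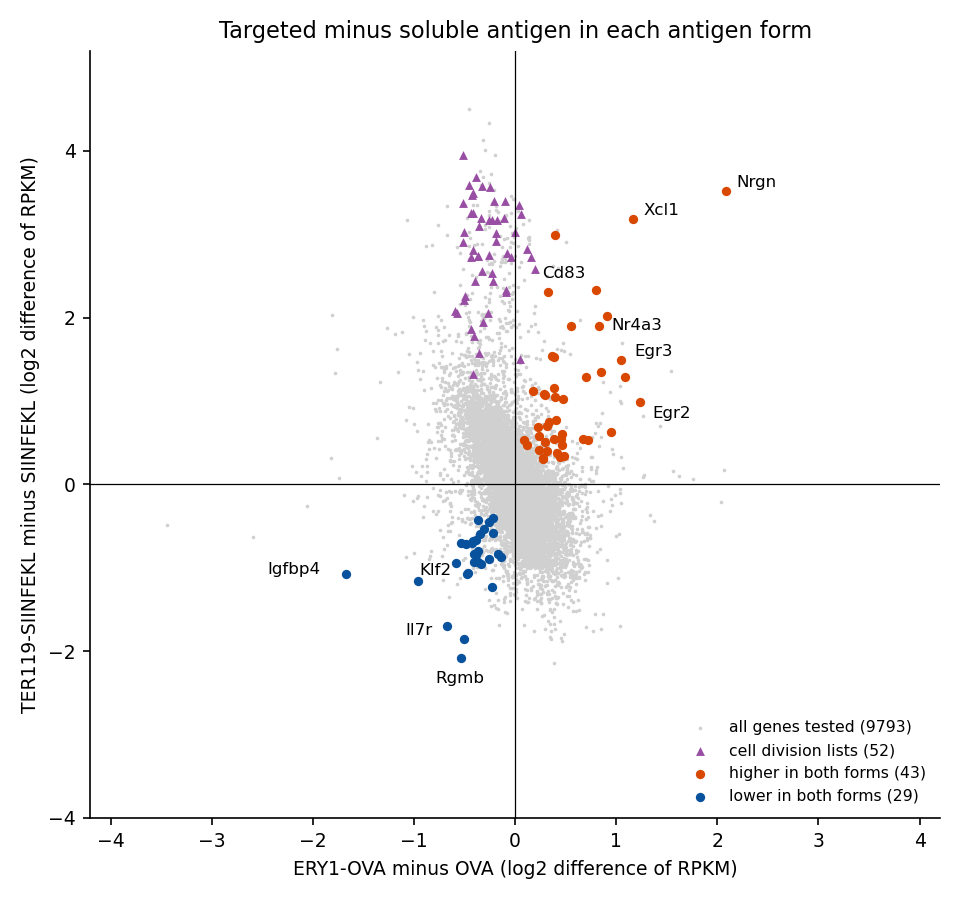
Each point is a gene, with its log2 difference in the protein form (ERY1-OVA minus OVA) on the x axis and in the peptide form (TER119-SIINFEKL minus SIINFEKL) on the y axis. The 43 genes higher in both forms fall in the upper right and the 29 lower ones in the lower left, while the 52 genes of the cell division lists sit high on the y axis and near or below 0 on the x axis.

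Across the 9793 genes the effects of targeting in the protein form and in the peptide form ran in opposite directions, with a Pearson r of -0.45 and a Spearman rho of -0.56. These describe genes, which are not independent replicates, over 11 libraries. The sizes differed too: the protein form alone gave 40 higher (0.408%) and 64 lower genes (0.654%), and the peptide form alone 1996 (20.4%) and 1668 (17%). The difference between the forms was itself called for 3694 genes (37.7%), among them 678 of the 778 genes called in the average and 16 of the 72 same-way genes. The same-way rule removes genes whose forms go opposite ways, which bears on the count among the 72. Of the 72, 65 were also called in the peptide form alone, 3 in the protein form alone, and 42 had an unadjusted p under 0.05 in the protein form. The effect was larger with the peptide for 64 of the 72.

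The higher genes had a median averaged effect of 0.65 (range 0.29 to 2.80), made up of 0.41 in the protein form and 0.77 in the peptide form, with 12 genes changed at least 2-fold in the average and 4 in both forms. For the lower genes the median was -0.62 (range -1.38 to -0.31), from -0.39 and -0.84, with 5 and 1 genes past 2-fold. Over all genes tested the median averaged effect was 0.01. In 20 of the higher and 22 of the lower genes all 6 targeted libraries lay beyond all 5 soluble libraries, regardless of form. The rule already required this within each form, so these counts describe the genes chosen and are no separate support. Over all genes tested, 75 (0.766%) were higher and 48 (0.490%) lower without overlap within both forms. Just inside the threshold were Ptov1 (-0.77, adjusted p = 0.0486) and Sox4 (0.61, adjusted p = 0.0493), and just outside it Mvd (-0.30, adjusted p = 0.0503) and Ttc9c (0.26, adjusted p = 0.0536).

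Egr2 was the gene whose rise held most firmly. It encodes a zinc finger transcription factor induced by receptor signalling through calcium and NFAT, and lies at chr10:67535475-67542188 (GRCm38). Its level was 2.93, 2.99 and 2.62 RPKM in the OVA libraries and 6.89, 7.36 and 5.85 RPKM in ERY1-OVA. With peptide it was 6.90 and 6.35 RPKM in SIINFEKL and 12.8, 15.2 and 11.7 RPKM in TER119-SIINFEKL. Each targeted group thus lay wholly above its soluble counterpart, while ERY1-OVA covered the same levels as free peptide; the OVA libraries were below the Naive ones (3.09, 3.75 and 3.88 RPKM). The averaged difference was 1.11 ± 0.11 (SE; limma adjusted p = 0.000164), from 1.23 ± 0.14 with protein (adjusted p = 0.00641) and 0.99 ± 0.16 with peptide (adjusted p = 0.0004). The difference between the forms was -0.24 (adjusted p = 0.397). Egr2 was called in the average under all 26 alternative analyses, and no other same-way gene was.

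Egr3, a close relative of Egr2 that acts with it, followed with more spread. The OVA libraries held 6.15, 6.87 and 4.45 RPKM and the ERY1-OVA libraries 15.3, 10.6 and 10.3 RPKM. In the peptide form SIINFEKL stood at 15.9 and 5.14 RPKM and TER119-SIINFEKL at 25.1, 26.1 and 25.1 RPKM. SIINFEKL replicate 1 reached above all ERY1-OVA libraries, so the targeted and soluble libraries overlapped across forms though not within them. The averaged difference was 1.27 ± 0.24 (limma adjusted p = 0.00665), with 1.05 in the protein form (adjusted p = 0.107) and 1.49 in the peptide form (adjusted p = 0.00505). It was 0.87 without SIINFEKL replicate 2 and 1.68 without replicate 1, called in both.

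Nr4a3 encodes an orphan nuclear receptor that is induced by receptor signalling. Its soluble libraries were tight, at 3.75, 4.36 and 4.02 RPKM in OVA and 4.78 and 3.59 RPKM in SIINFEKL. The targeted libraries held 9.05, 5.96 and 6.84 RPKM in ERY1-OVA and 12.4, 18.3 and 16.4 RPKM in TER119-SIINFEKL. All 6 targeted libraries were above all 5 soluble ones, and the soluble libraries were at the Naive level (3.85, 4.77 and 3.62 RPKM). The averaged difference of 1.37 ± 0.14 (limma adjusted p = 0.000194) came from 0.83 with protein (adjusted p = 0.0515) and 1.90 with peptide, and the larger effect with peptide was called (1.07, adjusted p = 0.0101).

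Of the 16 receptor-induced transcription factors tested, 6 were called higher and none lower, against 5.64% and 2.31% of all genes. The 3 others called were Irf4 (1.00 ± 0.20), Ikzf2 (0.86 ± 0.21), which encodes Helios, and Nfkbid; these did not meet the same-way rule. Ikzf2 differed by 1.62 with protein (adjusted p = 0.0295) and by 0.10 with peptide (adjusted p = 0.824); SIINFEKL replicate 1 held 16.4 RPKM, more than any targeted library. Without SIINFEKL replicate 2 its averaged difference was 0.50 and not called; leaving out OVA replicate 2 (0.84) or TER119-SIINFEKL replicate 2 (0.75) also ended the call. Nr4a1, which encodes NUR77, an immediate reporter of receptor signalling, was not called (0.54 ± 0.31, adjusted p = 0.309). Its libraries spread widely within groups, from 20.7 to 66.1 RPKM in ERY1-OVA alone. The median over the 16 genes was 0.62 in the average, 0.43 with protein and 0.63 with peptide, and it stayed above 0 in every alternative. The number called was 4 without OVA replicate 2, SIINFEKL replicate 2 or TER119-SIINFEKL replicate 2, each left out in turn.

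Promoter sequences are shown for 3 same-way genes of transcription factors known to be switched by receptor signalling: Egr2 and Nr4a3, which were higher, and Klf2, which was lower. They are RefSeq windows of GRCm38.p6 from 250 bases before a transcript start to 50 bases from it, all on the plus strand. Capitals mark the CArG box, the site type bound by serum response factor, and the cyclic AMP response element core TGACGT, on either strand, in Egr2 and Nr4a3, and a match to the EGR consensus in Klf2. The Egr2 window was taken from those that hold a CArG box. Another Egr2 window, chr10:67535249-67535548, had no match to any sequence searched. Windows of Xcl1 and Il7r were also read, had no match and are not shown.
Egr2, chr10:67537619-67537918: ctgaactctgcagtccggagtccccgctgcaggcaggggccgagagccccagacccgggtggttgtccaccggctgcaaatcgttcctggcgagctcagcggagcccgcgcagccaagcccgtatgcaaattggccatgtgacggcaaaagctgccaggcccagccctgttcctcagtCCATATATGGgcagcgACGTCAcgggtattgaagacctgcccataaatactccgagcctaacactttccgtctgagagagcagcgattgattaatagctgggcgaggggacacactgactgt
Nr4a3, chr4:48045055-48045354: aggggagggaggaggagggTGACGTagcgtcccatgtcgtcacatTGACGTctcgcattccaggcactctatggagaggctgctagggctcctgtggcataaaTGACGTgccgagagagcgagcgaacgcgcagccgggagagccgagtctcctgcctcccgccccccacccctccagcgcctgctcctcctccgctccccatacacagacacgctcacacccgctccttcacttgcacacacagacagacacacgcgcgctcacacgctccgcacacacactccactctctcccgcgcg
Klf2, chr8:72318812-72319111: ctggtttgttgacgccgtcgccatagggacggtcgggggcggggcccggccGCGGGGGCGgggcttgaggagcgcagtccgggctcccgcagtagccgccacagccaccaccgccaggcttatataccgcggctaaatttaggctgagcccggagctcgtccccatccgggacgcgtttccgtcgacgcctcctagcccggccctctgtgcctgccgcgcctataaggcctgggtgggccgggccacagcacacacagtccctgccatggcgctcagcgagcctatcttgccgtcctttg
In Egr2 the CArG box begins at -72 and the response element core at -56 from the start, in Nr4a3 the core occurs at -231, -205 and -147, and in Klf2 the EGR match begins at -199.

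Promoter windows were available for 33 of the 43 higher and 20 of the 29 lower genes (46 and 30 windows) and for 7801 of all genes tested. Searches on both strands covered GCGTGGGCG or GCGGGGGCG (EGR), TGANTCA (AP-1), TGACGT (the response element core), TGGAAA (the NFAT core) and the CArG box by its usual definition. TGGAAA occurred in 27.3% of the higher genes, 15.0% of the lower and 19.1% of all genes, and TGACGT in 12.1%, 20% and 14.6%. The EGR sequences occurred in 6.06%, 5.00% and 7.58%, and AP-1 sites in 6.06%, 5.00% and 5.49%. CArG boxes were found in Egr2 and Tiam1 among the higher genes (6.06%), in Filip1l and Tpst2 among the lower (10.0%), and in 1.45% of all genes. In the Egr2 window that starts at 67537316 the CArG box overlaps a TGGAAA match. These shares describe letters in short windows and rest on 1 to 9 genes each.

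Among secreted products Xcl1 had the largest called effect of the cytokine list. It encodes lymphotactin, the chemokine that draws XCR1+ dendritic cells to activated CD8+ T cells. Its level was 36.1, 34.8 and 30.8 RPKM in OVA, 60.4, 79.2 and 91.8 RPKM in ERY1-OVA, 44.1 and 17.9 RPKM in SIINFEKL, and 362, 173 and 268 RPKM in TER119-SIINFEKL. Every targeted library was above every soluble one. The averaged difference was 2.18 ± 0.25 (limma adjusted p = 0.000367), with 1.17 for protein (adjusted p = 0.0961) and 3.19 for peptide, and the forms differed by 2.02 (adjusted p = 0.00676). Of the 15 cytokines and chemokines tested 3 were called higher and none lower (5.64% and 2.31% of all genes); without SIINFEKL replicate 1 the counts were 5 and 1. The other two were Ccl4 (1.73 ± 0.28), which encodes MIP-1β, and Tnfsf14 (0.87 ± 0.14), which encodes LIGHT; both were carried by the peptide form (3.05 and 1.5, against 0.42 and 0.25 with protein). Ifng, the effector cytokine, was not called (0.12 ± 0.58, adjusted p = 0.924), with 3.40 to 31.7 RPKM in ERY1-OVA and 6.95 to 21 RPKM in OVA.

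Some of the higher genes encode surface proteins. Cd83, an activation marker of lymphocytes and dendritic cells, stood at 6.31, 4.91 and 5.90 RPKM in OVA and 8.05, 9.78 and 12.3 RPKM in ERY1-OVA. With peptide it was 7.20 and 2.53 RPKM in SIINFEKL and 22.9, 21.2 and 20.1 RPKM in TER119-SIINFEKL, again with all 6 targeted libraries above all 5 soluble. Its averaged difference was 1.56 ± 0.21 (limma adjusted p = 0.00101), larger by 1.52 with peptide (adjusted p = 0.0125); without SIINFEKL replicates 2 and 1 the average was 1.19 and 1.94. Crtam, a receptor of activated CD8+ and NK cells, had little spread within groups: 34.5, 34.5 and 37.3 RPKM in OVA, 47.4, 49.0 and 51.3 in ERY1-OVA, 39.0 and 31.7 in SIINFEKL, and 74.3, 70.1 and 70.7 in TER119-SIINFEKL. Crtam and Egr2 were the only genes called in each form alone with the same sign (0.0204% of genes tested; no lower gene was, and 22 lower genes had an unadjusted p under 0.05 in both). For Crtam the difference was 0.48 ± 0.10 with protein (adjusted p = 0.041) and 1.03 ± 0.11 with peptide (adjusted p = 2.97e-05), and 0.75 ± 0.08 in the average. Itm2a, a membrane protein induced on T cell activation, ran from 69.3 to 167 RPKM in the targeted and from 41.1 to 60.5 RPKM in the soluble libraries (0.99 ± 0.18, adjusted p = 0.00642).

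**Figure D2:**
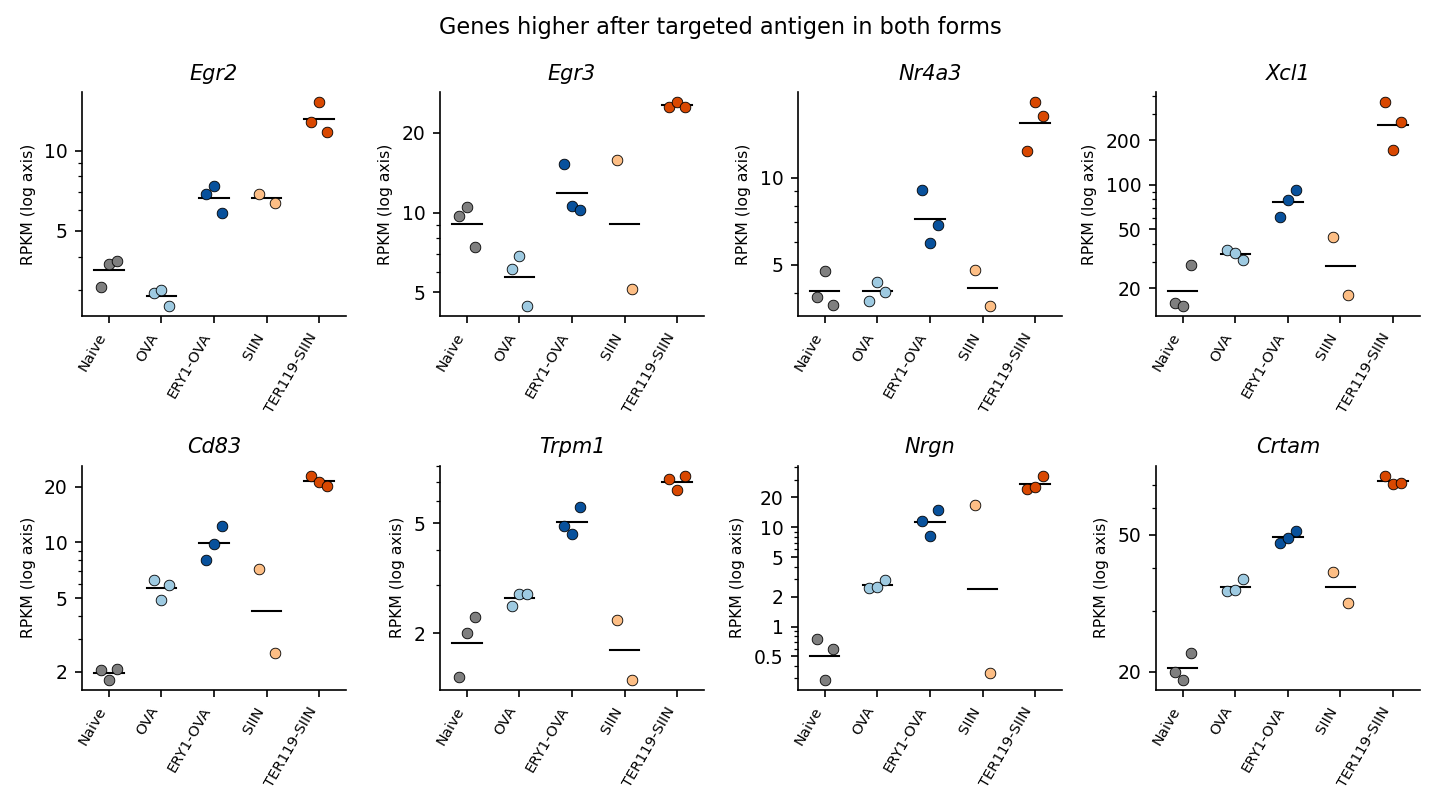
RPKM of 8 genes higher in both forms, on log axes, by group; each point is a library, each bar the mean of log2 values, and SIIN stands for SIINFEKL. In each panel the ERY1-OVA points lie above the OVA points and the TER119-SIINFEKL points above the SIINFEKL points, and SIINFEKL replicate 1 lies within or above the ERY1-OVA points for Egr2, Egr3 and Nrgn.

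The remaining named higher genes were less known in T cells or less stable. Trpm1, a cation channel gene, was at 2.52 to 2.78 RPKM in OVA, 4.58 to 5.73 in ERY1-OVA, 1.37 to 2.23 in SIINFEKL and 6.58 to 7.40 in TER119-SIINFEKL (1.46 ± 0.16, limma adjusted p = 0.000205). Nrgn, which encodes the calmodulin-binding protein neurogranin, had the largest averaged difference of all same-way genes, 2.80 ± 0.69 (adjusted p = 0.0255), and the widest spread. Its SIINFEKL libraries held 16.8 and 0.341 RPKM, so that replicate 1 exceeded all 3 ERY1-OVA libraries (11.7, 8.07 and 14.8 RPKM); OVA held 2.45, 2.51 and 2.94 RPKM and TER119-SIINFEKL 24.2, 25.3 and 33 RPKM. Its call ended without OVA replicate 2 (2.79), ERY1-OVA replicate 3 (2.70) or TER119-SIINFEKL replicate 3 (2.73), each at nearly the same size, and without SIINFEKL replicate 2 it was 1.40 and called. Hivep3, a zinc finger gene, rose from 1.98 to 3.26 RPKM in OVA to 4.11 to 6.62 in ERY1-OVA and from 3.50 to 7.74 in SIINFEKL to 9.10 to 16.8 in TER119-SIINFEKL (1.10 ± 0.23, adjusted p = 0.0137), with 0.81 and 1.39 without SIINFEKL replicates 2 and 1. Fbln1, an extracellular matrix gene, and Sox4, a transcription factor gene, stood at no more than 3.38 and 2.85 RPKM in any antigen library and differed by 1.22 ± 0.33 and 0.61 ± 0.17. Fbln1 and Sox4 were each called in 2 of the 11 analyses that left out 1 antigen library; without SIINFEKL replicate 2 the value of Fbln1 was 0.63.

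The other 31 higher genes are named to account for every member, outside the rule for named genes. They include genes of signalling proteins (Slamf1, Fgr, Stap1, Samsn1, Tiam1 and Nek7), of nuclear proteins (Gfi1, Mtf2, H2afv, Zcwpw1 and Ddx52) and of metabolism (Acadl, Galm, Gyg, Gstm4, Nmnat2, Ass1 and Slc27a6). Fam64a and Knstrn belong to mitosis and were low in SIINFEKL replicate 2 (0.373 and 2.11 RPKM), with averaged differences of 1.69 and 1.32 that came mainly from the peptide form (2.99 and 2.31). Fam64a lost its call in 7 of the 11 leave-one-out analyses, Knstrn in none; without SIINFEKL replicate 2 their differences were 0.82 and 0.78. Ass1 and Gm5424, a copy of it, had nearly the same values in every library and may share reads. The others were Cd200r1, described with the inhibitory receptors, and Mmd, Reep5, Cep57l1, Litaf, Gtpbp8, Ccdc181, Rilpl2, Lcmt1 and Susd1. Without SIINFEKL replicate 2 the differences of Reep5, Litaf, Rilpl2 and Ass1 were 0.20, 0.52, 0.39 and 0.31, against 0.32, 0.95, 0.77 and 0.69 with it. Cd200r1 and Gtpbp8 are neighbours on chromosome 16.

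Inhibitory receptor genes were higher after targeted antigen for some members and in different forms. Of 12 tested, 3 were called higher and 1 lower (5.64% and 2.31% of all genes), and 1 moved the same way in both forms (0.439%). Cd200r1, the receptor for the inhibitory ligand CD200, was that gene, at low levels: 0.921, 1.16 and 0.982 RPKM in OVA, 1.5, 2.15 and 2.37 in ERY1-OVA, 1.34 and 1.17 in SIINFEKL, and 2.16, 2.04 and 1.64 in TER119-SIINFEKL. All 6 targeted libraries were above the 5 soluble ones, and the difference was 0.79 ± 0.18 (limma adjusted p = 0.0201); the call ended without ERY1-OVA replicate 2 (0.76) or SIINFEKL replicate 2 (0.74). Cd200 itself, which encodes the ligand, was called (1.45 ± 0.31, adjusted p = 0.0146), with 8.92 to 9.86 RPKM in OVA, 25.7 to 28 in ERY1-OVA and 45.1 to 51.2 in TER119-SIINFEKL, but its SIINFEKL libraries held 46.3 and 7.90 RPKM and overlapped with the targeted ones; without SIINFEKL replicate 2 it was 0.81, still called. Tigit, a receptor that competes with CD226, was called at 1.08 ± 0.27 (adjusted p = 0.027), with 1.69 from the peptide and 0.47 from the protein form. It was not called in 7 of the 11 analyses without 1 antigen library, of which the lowest value was 0.97, without OVA replicate 1. The gene called lower was 4632428N05Rik, which encodes the checkpoint protein VISTA (-0.37 ± 0.09, adjusted p = 0.021), with -0.78 in the peptide form and 0.04 in the protein form; its call held in 7 of the 11. Without SIINFEKL replicate 1 the list had 5 genes called higher.

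PD-1, LAG-3 and CTLA-4 were not called in the average. Pdcd1, which encodes PD-1, held 11.6, 9.17 and 9.98 RPKM in OVA, 14.4, 16.8 and 16.5 in ERY1-OVA, and 33.9, 32.2 and 32.0 in TER119-SIINFEKL. Within each form all targeted libraries were above the soluble ones, yet SIINFEKL replicate 1 held 30.1 RPKM and replicate 2 only 2.33, and the difference was 1.30 ± 0.45 (limma adjusted p = 0.0927). Lag3 had 145 and 9.95 RPKM in SIINFEKL, around the 58.9 to 78.2 RPKM of TER119-SIINFEKL, and differed by 1.04 ± 0.47 (adjusted p = 0.199). With protein alone Lag3 was 40.6 to 58.2 RPKM in ERY1-OVA against 17.9 to 22.6 RPKM in OVA, which did not overlap (1.26 ± 0.63, adjusted p = 0.327). Ctla4 likewise held 40.5 to 108 RPKM in ERY1-OVA against 20.5 to 30.8 RPKM in OVA, without a call, and differed by 0.68 ± 0.32 in the average (adjusted p = 0.219). Without SIINFEKL replicate 1, Pdcd1 and Lag3 were called, at 2.23 and 2.01; without replicate 2 neither was, at 0.38 and 0.074. All 4 antigen groups held more Pdcd1, Lag3 and Ctla4 RNA than the Naive group, where they were at most 0.421, 0.793 and 4.38 RPKM. The median over the list was 0.57 in the average, 0.55 with protein and 0.72 with peptide; without SIINFEKL replicate 2 the peptide median was 0.10, and without replicate 1 it was 1.12.

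Costimulatory and activation genes were called higher in 6 of 20 tested and lower in none (5.64% and 2.31% of all genes), with Cd83 the sole same-way gene; 3 to 6 were called when 1 antigen library was left out, and 3 without OVA replicate 2, ERY1-OVA replicate 1 or 2, SIINFEKL replicate 2, or TER119-SIINFEKL replicate 2 or 3. Tnfrsf9, which encodes 4-1BB, was 66.6 to 99.0 RPKM in TER119-SIINFEKL against 8.96 and 19.1 RPKM in SIINFEKL; ERY1-OVA (26.5 to 35.4 RPKM) overlapped with OVA (19 to 27.9 RPKM), and the averaged difference was 1.51 ± 0.21 (limma adjusted p = 0.00103). Il2ra, the high-affinity subunit of the interleukin-2 receptor, was called at 2.04 ± 0.30 entirely through the peptide form (4.34, against -0.26 with protein). Its SIINFEKL libraries held only 0.0739 and 0.0855 RPKM and its TER119-SIINFEKL libraries 0.952 to 3.07 RPKM, levels at which the fold is uncertain. Icos was called at 0.40 ± 0.11 (adjusted p = 0.0337) with SIINFEKL replicate 1 (56.3 RPKM) within the TER119-SIINFEKL range; it was called in 3 of 11 leave-one-out analyses, and without SIINFEKL replicate 2 the value was 0.24. Cd44, the adhesion receptor of antigen-experienced cells, was higher in all 6 targeted libraries (46.9 to 58.7 RPKM) than in all 5 soluble ones (38.1 to 46.6 RPKM), and its difference of 0.34 ± 0.11 had an adjusted p of 0.0688.

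Genes of anergy and receptor attenuation did not move together. Of 20 tested, 2 were called higher and 2 lower (5.64% and 2.31% of all genes), none the same way in both forms, and the median was 0.04. Folr4, now named Izumo1r, which encodes folate receptor 4, was the member with the largest called effect (1.07 ± 0.19, limma adjusted p = 0.00544). It held 30.9, 34.8 and 30.5 RPKM in OVA, 84.1, 86.1 and 89.3 in ERY1-OVA, 120 and 50.7 in SIINFEKL, and 167, 111 and 111 in TER119-SIINFEKL. SIINFEKL replicate 1 lay inside the range of TER119-SIINFEKL, which kept Folr4 from the same-way rule; with protein it was called (1.43, adjusted p = 0.0295). Ndrg1 was called higher through the peptide form (1.56, against -0.50 with protein), and Dgka and Sla2 were called lower through it (-0.78 and -0.72, against 0.21 and -0.02). Ndrg1 was called in 8 of the 11 leave-one-out analyses, and Dgka and Sla2 in 2 each. Among 13 feedback genes of the ERK pathway, such as the Dusp, Spry and Spred families, limma called none; 2 had an unadjusted p under 0.05, Rasa3 and Rasal3, both lower.

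Genes that fell in both forms included 3 that mark the resting T cell. Of 22 naive and memory genes tested 6 were called lower and none higher, against 2.31% and 5.64% of all genes, and 3 moved the same way in both forms: Il7r, Klf2 and Igfbp4. The list as a whole did not fall in both forms: its median was -0.28 in the average, 0.14 with protein and -0.70 with peptide. The difference between forms was called for 17 of the 22 (37.7% of all genes). Without SIINFEKL replicate 1 the list had 11 genes called lower; leaving out any 1 antigen library left at least 6. In bulk RNA, fewer cells with a transcript and less of it per cell cannot be told apart. Il7r encodes the receptor chain for interleukin-7, the survival cytokine of resting T cells, and lies at chr15:9505788-9530176 (GRCm38). It was 36.9, 44.7 and 37.4 RPKM in OVA, 19.1, 29.3 and 27.4 in ERY1-OVA, 44.6 and 43.0 in SIINFEKL, and 16.8, 9.11 and 16.0 in TER119-SIINFEKL. All 6 targeted libraries lay below all 5 soluble ones, and these below the Naive libraries (139 to 164 RPKM). The averaged difference was -1.19 ± 0.16 (limma adjusted p = 0.000857), from -0.67 with protein (adjusted p = 0.123) and -1.70 with peptide (adjusted p = 0.000141), and the forms differed by -1.03 (adjusted p = 0.0198).

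Klf2 keeps T cells in circulation by maintaining S1pr1. It was 144, 178 and 124 RPKM in OVA, 110, 123 and 100 in ERY1-OVA, 141 and 162 in SIINFEKL, and 83.5, 80.4 and 74.4 in TER119-SIINFEKL. The highest targeted library lay just below the lowest soluble one, and Naive libraries held 259 to 345 RPKM. The difference was -0.67 ± 0.11 (limma adjusted p = 0.00294), with -0.41 for protein (adjusted p = 0.163) and -0.93 for peptide. Its target S1pr1, the exit receptor of lymphoid organs, was called (-0.61 ± 0.08) through the peptide form alone (-1.32, against 0.11 with protein), and the forms differed by -1.44 (adjusted p = 4.68e-05). Il6ra behaved alike, with -1.46 for peptide and -0.24 for protein. Tcf7, which encodes TCF-1, was not called (-0.14 ± 0.11, adjusted p = 0.497), with 0.23 for protein and -0.50 for peptide.

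Igfbp4, which encodes an insulin-like growth factor binding protein typical of naive T cells, was the same-way gene with the lowest averaged value, -1.38 ± 0.27 (limma adjusted p = 0.00933). Its levels were 30.1, 30.9 and 19.4 RPKM in OVA, 7.75, 7.97 and 9.04 in ERY1-OVA, 6.61 and 8.52 in SIINFEKL, and 4.98, 1.54 and 5.82 in TER119-SIINFEKL. Here the protein form had the larger value, -1.67 (adjusted p = 0.0458) against -1.08 with peptide (adjusted p = 0.0515), a difference between forms that was not called (0.59, adjusted p = 0.42). Free peptide and ERY1-OVA covered the same range, while Naive libraries held 99.5 to 112 RPKM.

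**Figure D3:**
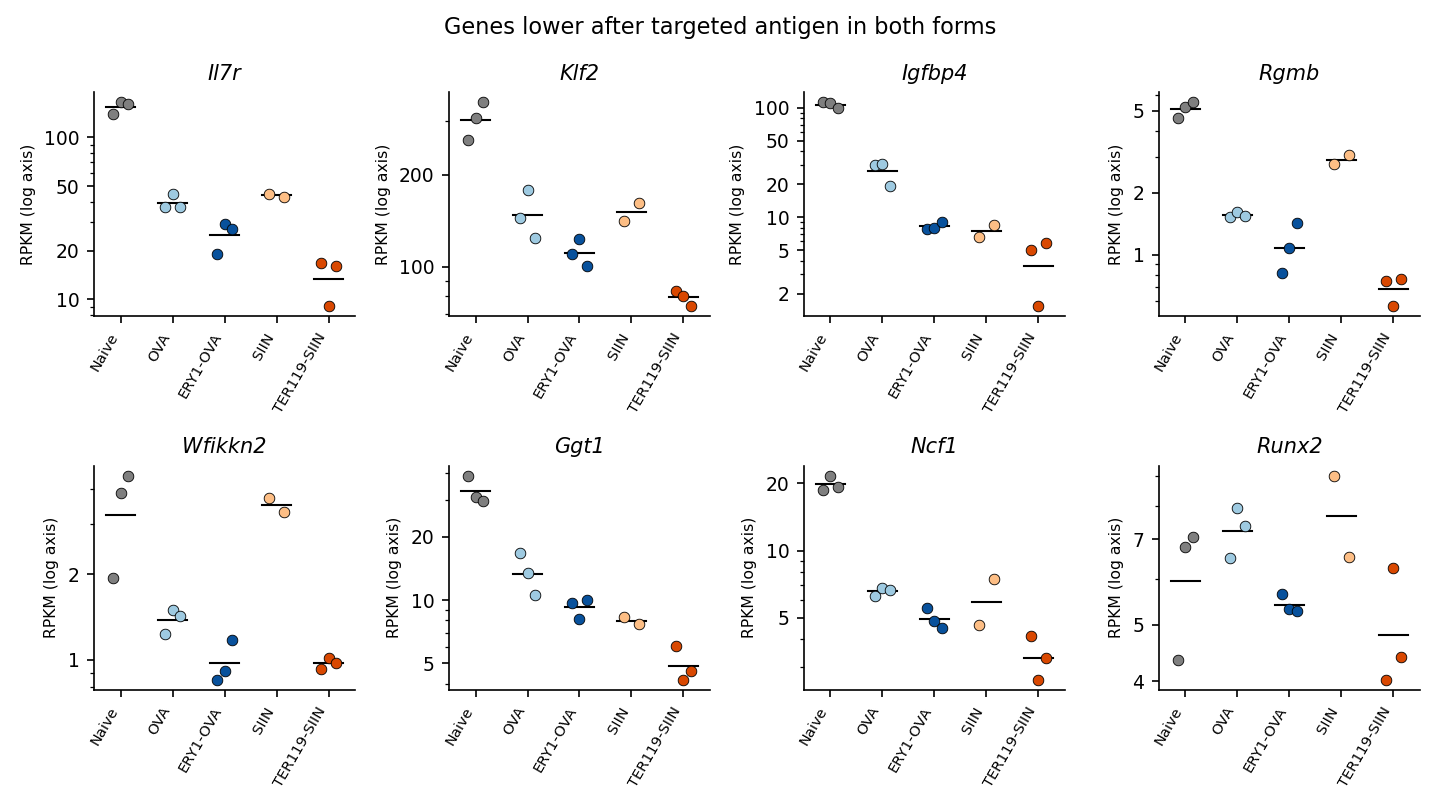
RPKM of 8 genes lower in both forms, on log axes, by group; each point is a library, each bar the mean of log2 values, and SIIN stands for SIINFEKL. Within each form the targeted points lie below the soluble ones, and for Il7r, Klf2, Igfbp4, Rgmb, Ggt1 and Ncf1 all antigen groups lie below the Naive group.

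Several less studied genes fell as well. Rgmb, which encodes a BMP co-receptor that also binds PD-L2, was 1.52 to 1.61 RPKM in OVA, 0.814 to 1.42 in ERY1-OVA, 2.75 and 3.06 in SIINFEKL and 0.565 to 0.760 in TER119-SIINFEKL (-1.31 ± 0.16, limma adjusted p = 0.000597). Wfikkn2, which encodes an inhibitor of myostatin, fell from 1.23 to 1.5 RPKM in OVA to 0.851 to 1.18 in ERY1-OVA, and from 3.32 to 3.71 in SIINFEKL to 0.923 to 1.02 in TER119-SIINFEKL (-1.18 ± 0.20, adjusted p = 0.00373). For both, free peptide stood above OVA, and the forms differed (-1.54, adjusted p = 0.0022, and -1.35, adjusted p = 0.0177). The targeted groups overlapped for Wfikkn2, while for Rgmb TER119-SIINFEKL lay below ERY1-OVA. Ncf1, a subunit of the phagocyte NADPH oxidase, was 6.24 to 6.79 RPKM in OVA, 4.52 to 5.52 in ERY1-OVA, 4.64 and 7.49 in SIINFEKL and 2.65 to 4.16 in TER119-SIINFEKL (-0.62 ± 0.14); without SIINFEKL replicate 2 it was -0.45 and not called. Ggt1, a gamma-glutamyltransferase gene, differed by -0.62 ± 0.14 and was lower in every antigen group than in Naive (29.5 to 38.9 RPKM). Tnfrsf22, a decoy receptor gene, appears under 2 gene identifiers, with differences of -0.62 ± 0.12 and -0.76 ± 0.13; since they bear the same name, they may share reads and are not separate evidence.

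Runx2 was the only gene called lower among 13 effector transcription factors tested, and Irf8 the only one called higher (2.31% and 5.64% of all genes). Runx2, better known from bone and linked to memory CD8+ T cells, held 6.50, 7.93 and 7.38 RPKM in OVA, 5.65, 5.32 and 5.27 in ERY1-OVA, 9.0 and 6.54 in SIINFEKL and 4.03, 6.25 and 4.41 in TER119-SIINFEKL. The targeted libraries were all below the soluble ones, but by little, and the difference of -0.55 ± 0.15 (limma adjusted p = 0.0454) kept its call in 3 of 11 leave-one-out analyses; its lowest value in size was -0.43, without SIINFEKL replicate 1. Irf8 was called at 0.79 ± 0.18 with opposite signs in the forms (-0.48 with protein, 2.06 with peptide), and not without OVA replicate 2 (0.76), SIINFEKL replicate 1 (0.63) or TER119-SIINFEKL replicate 3 (0.76). Tbx21 and Eomes, which encode T-bet and its relative, were not called (-0.14 ± 0.16 and 0.20 ± 0.27; adjusted p = 0.637 and 0.694); Eomes was 0.71 and called without SIINFEKL replicate 2, and -0.31 and not called without replicate 1. Otud3, a deubiquitinase gene, and 5031425E22Rik completed the named lower genes at -0.56 ± 0.14 and -0.60 ± 0.16, called in 5 and 4 of the 11 leave-one-out analyses.

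The other 17 lower genes, again outside the rule for named genes, include Axin2, a feedback inhibitor and target of Wnt signalling. It was 5.15, 6.79 and 5.66 RPKM in OVA, 4.21, 4.58 and 5.13 in ERY1-OVA, 8.94 and 6.44 in SIINFEKL and 3.36, 4.46 and 3.95 in TER119-SIINFEKL (-0.65 ± 0.14, limma adjusted p = 0.0145). Targeted and soluble libraries did not overlap for Axin2, and its call held in all 11 leave-one-out analyses. The rest were Rassf1, Zfp318, Slco3a1, Tpst2, Dennd3, Ptov1, Filip1l, BC030336, Fam211b, Arl4c, Crebzf, Trim65, B3gnt9, Tut1, Vps13d and Gm5819. Fam211b and Ggt1 are neighbours on chromosome 10. Arl4c was the most abundant of these, at 77.7 to 84.1 RPKM in ERY1-OVA against 97.1 to 122 in OVA and 43.1 to 57.9 in TER119-SIINFEKL against 74.2 and 131 in SIINFEKL.

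The same-way genes are also described by their place relative to resting cells. The rule orders targeted against soluble levels, which bears on this placement, so it is given without a reference share. Of the 43 higher genes, 40 had both targeted group means above the Naive mean, and 30 had all 4 antigen means above it. All 29 lower genes had both targeted means below the Naive mean, and 26 had all 4 antigen means below it. In 2 of the higher genes both targeted means were above and both soluble means below the Naive mean.

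**Figure D4:**
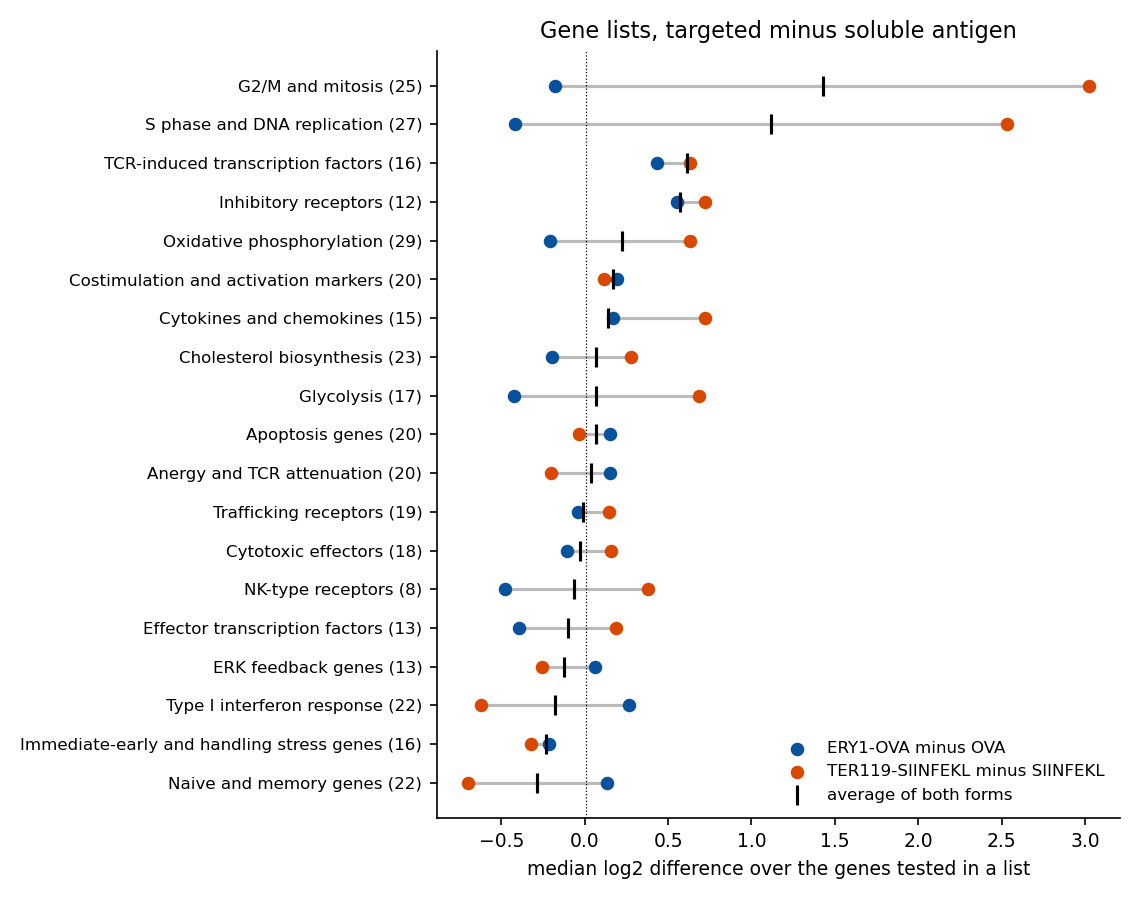
Median log2 difference, targeted minus soluble, over the genes tested in each of 19 lists (number in brackets), for the protein form, the peptide form and their average; the dotted line is the median of all genes tested. The medians of both forms lie close together and above 0 for receptor-induced transcription factors and inhibitory receptors, and far apart for the cell division lists.

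The cell division lists held the most uniform calls in the average, and most of their genes had opposite signs in the protein and peptide forms. All 25 genes of G2/M and mitosis and all 27 of S phase and DNA replication were called higher, against 5.64% of all genes. None of these met the same-way rule, while Fam64a and Knstrn, mitosis genes outside the lists, did. The sign was the same in both forms for 7 of the 25 and 0 of the 27. The medians of the G2/M and S phase lists were 1.43 and 1.12 in the average, 3.02 and 2.53 with peptide, and -0.18 and -0.42 with protein. For all 52 the difference between forms was called. The median level of the G2/M genes was 5.03, 5.09 and 5.39 log2 RPKM in OVA, 5.30, 4.81 and 4.94 in ERY1-OVA and 4.50, 5.10 and 4.95 in TER119-SIINFEKL, but 3.01 and 0.66 in SIINFEKL, close to the Naive libraries (0.06, -0.10 and 0.49) in replicate 2. Among the antigen groups, SIINFEKL alone lay apart on these genes. Mki67, the proliferation marker, was called at 1.44 ± 0.41 (limma adjusted p = 0.0486) with 2.73 from peptide and 0.16 from protein, and its call held in 2 of the 11 leave-one-out analyses; it was 0.72 without SIINFEKL replicate 2 and 2.16 without replicate 1. With that library left out the G2/M median was 0.79 and 18 of 25 were called, and without SIINFEKL replicate 1 it was 2.08 with all 25 called. Between 13 and 16 were called without OVA replicate 2, TER119-SIINFEKL replicate 3 or TER119-SIINFEKL replicate 2, with medians of 1.42, 1.39 and 1.36, while 26 or 27 of the S phase genes were called whichever library was left out.

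Levels of Egr2 and Il7r were set beside the G2/M medians. With peptide, TER119-SIINFEKL had higher G2/M medians than SIINFEKL together with higher Egr2 and lower Il7r, and the Naive libraries had the lowest G2/M medians and the highest Il7r. With protein, OVA and ERY1-OVA overlapped in G2/M medians. Their S phase medians did not overlap, at 6.09, 5.79 and 6.10 log2 RPKM in OVA and 5.64, 5.61 and 5.66 in ERY1-OVA. Egr2 and Il7r did not overlap between these groups either. The same-way rule required both genes to be separated within each form. Il7r was 36.9 to 44.7 RPKM over the OVA and SIINFEKL libraries, whose G2/M medians did not overlap. The part of division in these differences was not tested.

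**Figure D5:**
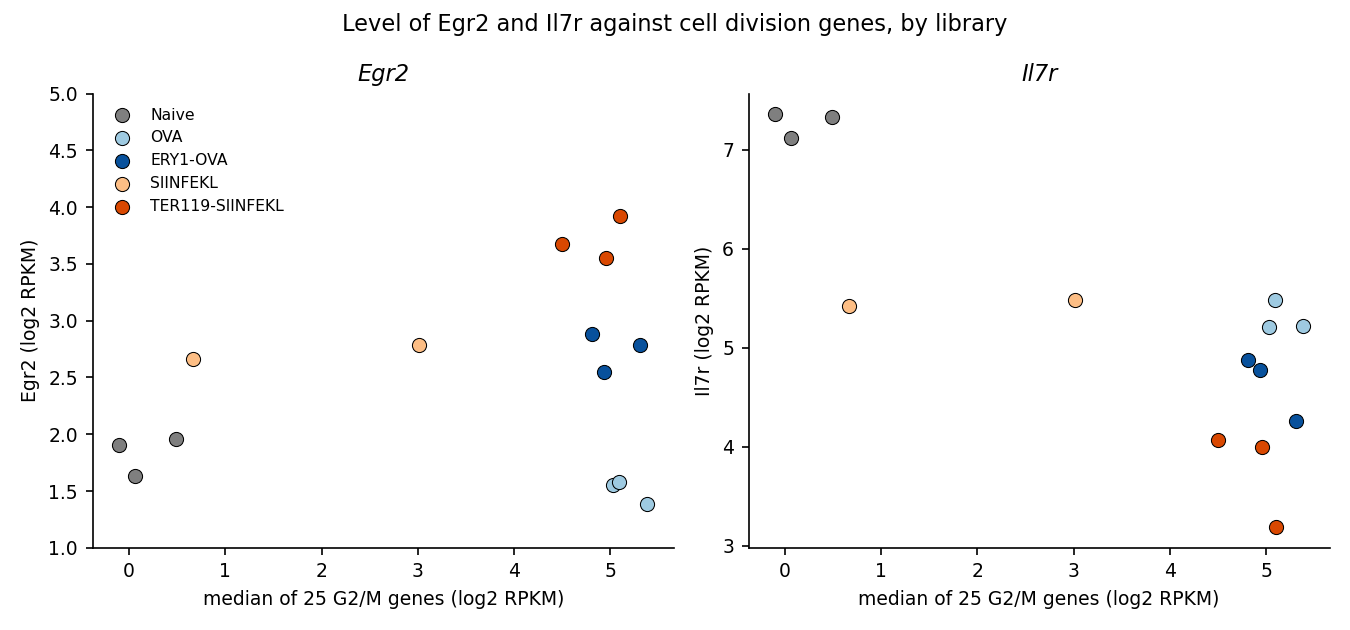
Level of Egr2 (left) and Il7r (right) against the median level of 25 G2/M genes, both in log2 RPKM, with a point for each of the 14 libraries. OVA and ERY1-OVA overlap in G2/M level, and their Egr2 and Il7r levels lie apart, which the same-way rule required. SIINFEKL lies at lower G2/M levels with Il7r at the OVA level.

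The genes with the clearest opposite effects belonged to replication and growth. Mcm5, a subunit of the replicative helicase, was 134 to 151 RPKM in OVA and 90.5 to 104 in ERY1-OVA, but 11.9 and 18.8 in SIINFEKL and 97.2 to 124 in TER119-SIINFEKL, so targeting changed it by -0.51 with protein and 2.90 with peptide. Tuba1b, Ung and Ahcy followed the same pattern, as did Gm4737, a copy of Ahcy whose values track it. Of 9793 genes 1522 (15.5%) did not overlap in both forms and went opposite ways, and of these 205 were called in the average.

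Glycolysis genes were called higher in 6 of 17 tested (5.64% of all genes), all through the peptide form: none had the same sign in both forms, 10 were called higher with peptide (20.4% of all genes) and 4 lower with protein (0.654%). Tpi1 was the clearest, at -0.76 with protein (limma adjusted p = 0.0295) and 1.85 with peptide. Of 29 genes of oxidative phosphorylation 1 was called, Atp5b (0.29 ± 0.08), and of 23 of cholesterol synthesis 1, Pmvk (0.32 ± 0.09), called in 3 and 2 of the 11 leave-one-out analyses. With peptide alone 21 of the 29 oxidative phosphorylation genes were called higher, with medians of 0.63 in that form and -0.21 with protein, and the difference between forms was called for 19 (37.7% of all genes). Apoptosis genes were called higher in 4 of 20 (5.64% of all genes), among them Bcl2l1 and the near-identical Bcl2a1b and Bcl2a1d, which may share reads (1 to 6 called when 1 antigen library was left out, and Bcl2a1b and Bcl2a1d in 3 of 11 each); Bcl2l1, which encodes the survival protein BCL-XL, had 1.30 with peptide and 0.0049 with protein.

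In the average, no gene of cytotoxicity was called by limma in 18 tested, and none of 8 NK-type receptors. The same held for 16 immediate-early and handling stress genes and 22 interferon-response genes. Of all genes, 5.64% were called higher and 2.31% lower. At an unadjusted p under 0.05 stood 2 cytotoxicity genes (Serpinb6b and Stx11), 1 NK-type receptor (Klrb1c) and 1 handling stress gene (Hsp90aa1), all higher, and 1 interferon-response gene (Ddx58), lower. Leaving out 1 antigen library gave 0 to 2 calls in each of these lists. By form, 7 of the 22 interferon-response genes were called lower with peptide (17% of all genes), with medians of 0.26 for protein and -0.62 for peptide. Of the cytotoxicity genes 4 were called higher with peptide (20.4% of all genes) and 1 lower with protein (0.654%). The difference between forms was called for 7 interferon-response and 5 cytotoxicity genes (37.7% of all genes). Gzmb, which encodes granzyme B, was 50.4, 20.3 and 22.2 RPKM in OVA and 5.80, 8.62 and 11.7 in ERY1-OVA, and in the peptide form 1.71 and 4.46 in SIINFEKL and 10.8, 9.15 and 6.33 in TER119-SIINFEKL. Targeted antigen therefore lay below soluble protein and above free peptide: -1.76 ± 0.40 (limma adjusted p = 0.0515) and 1.63 ± 0.45 (adjusted p = 0.0119), which cancel to -0.07 ± 0.30 in the average, and the forms differed by 3.39 (adjusted p = 0.000863). Prf1, which encodes perforin, differed by -0.19 ± 0.15 (adjusted p = 0.466). Among 19 trafficking receptors 2 were called lower (2.31% of all genes): Itgae, the CD103 integrin chain (-0.85 ± 0.23, adjusted p = 0.0383), nearly equal in both forms (-0.84 and -0.86) but overlapping with SIINFEKL, and Selplg (-0.38 ± 0.09), with -0.76 in the peptide form. Itgae kept its call in 3 of 11 leave-one-out analyses, with -0.64 without SIINFEKL replicate 2.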

How the data were processed

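Polyadenylated RNA was sequenced from stranded libraries, per the labels' protocols. The authors deposited log2 RPKM values for 10106 genes. The builds GRCm38 and mm10 and the tools STAR 2.4.2, bcl2fastq 2.17.1.14 and edgeR appear, without roles, in the submitters' processing notes; counter, annotation, filters and normalization are not given in the sources used here. Values were used as deposited, since they were already logarithms (4.30% negative); RPKM in the text is 2 raised to them. No lowest value was shared between libraries (tolerance 1e-06), so read counts could not be recovered, depth is unknown and no counting interval is given.

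Genes averaging under 1 RPKM (313) were removed, and limma 3.58.1 in R 4.3.3, with a mean-variance trend, estimated 5 group means. Tests were two-sided. Simulated data had the same change in both forms and, for each gene, the same spread in all groups. There, changes of log2 0.5, 1 and 2 met the same-way rule in 53.7%, 88.1% and 95.5% of genes. The measured effects differed between forms and SIINFEKL spread more, so these rates need not hold here. Replicate numbers did not pair libraries consistently and were no term. Named genes were the 12 higher and 12 lower same-way genes with the largest smaller form effect (mean RPKM of at least 2 where higher), up to 4 called members per list, 5 with opposite effects, and core T cell genes. Members, lists and markers were chosen with earlier results of these data known. Lists are described without set tests. Positions for 10027 genes come from GENCODE M21. Figures used matplotlib 3.10.9 in Python 3.11.15. Values of a few named genes are not reported here.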

Additional observations from a re-analysis of the deposited data

Results flagged for a closer look

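The effect of targeting differed between the antigen forms for the genes named here, by limma's test of peptide minus protein (adjusted p under 0.05). Each value is the log2 effect with peptide minus that with protein. Among division and replication genes it was 3.61 for Tpx2, 3.41 for Mcm5, 3.40 for Kif20a, 3.17 for Rrm1, 3.01 for Cdc20, 2.94 for Ung, 2.85 for Top2a, 2.83 for Mcm7 and 2.57 for Mki67. Growth and metabolic genes gave 2.61 for Tpi1, 2.53 for Tuba1b, 2.06 for Ndrg1, 2.00 for Ahcy and for its copy Gm4737, 1.82 for Pgk1, 1.65 for Ldha, 1.57 for Pgam1, 1.39 for Atp5b and 0.94 for Pmvk. Activation, effector and survival genes gave 4.60 for Il2ra, 3.39 for Gzmb, 2.63 for Ccl4, 2.54 for Irf8, 2.17 for Tnfrsf9, 1.43 for Irf4, 1.30 for Bcl2l1, 1.25 for Tnfsf14 and 0.97 for Tbx21.

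Genes of resting or attenuated cells had a lower effect with peptide: S1pr1 by -1.44, Il6ra by -1.22, Dgka by -0.98, 4632428N05Rik by -0.81, Selplg by -0.78, Tcf7 by -0.74 and Sla2 by -0.70. Ikzf2 had -1.52, being higher after targeting with protein.

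Same-way genes whose size nevertheless differed were Xcl1 (2.02), Cd83 (1.52), Trpm1 (1.11), Nr4a3 (1.07) and Crtam (0.55) among the higher ones and Rgmb (-1.54), Wfikkn2 (-1.35) and Il7r (-1.03) among the lower. In each the effect was larger with peptide. Of the 44 differences given here, all kept their sign without either SIINFEKL library. Without SIINFEKL replicate 2, which lay near the Naive libraries, 38 were called and 31 were smaller; Mki67 (1.13), Irf4 (1.01), Trpm1 (0.75), Tbx21 (0.62), Tcf7 (-0.57) and Crtam (0.40) were not called. Without replicate 1, 40 were called, and Ikzf2 (-0.80), Wfikkn2 (-1.27), Il7r (-1.0) and Sla2 (-0.66) were not.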

How the results depend on the processing

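The sign of all 72 same-way genes was kept in all 26 alternatives, and 33 were called whichever antigen library was left out; 63 were called without SIINFEKL replicate 1 and 43 without SIINFEKL replicate 2. Requiring a 2-fold change left 173 higher and 5 lower genes in the average, 12 and 5 of them same-way, and 0 called in each form. An additive model of form and targeting, whose residual holds the difference between forms, left 1 higher gene, Egr2, which was also the 1 same-way gene and the 1 called in each form, and 0 lower genes in the average and 0 same-way. Array weights called 30 higher and 10 lower genes in each form. A filter at 3 RPKM and a pseudocount of 1 gave 4 higher in each form, and the latter and median-of-ratios rescaling 1 lower; the length and GC correction gave 6 higher in each form and 383 lower in the average. Quantile normalization gave 352 lower in the average. Using only the 4 antigen groups, without the Naive libraries in the estimate of spread, gave 418 higher and 146 lower genes in the average. It gave 29 higher and 25 lower same-way genes, and 1 higher in each form. The analysis lacking both OVA replicate 1 and TER119-SIINFEKL replicate 1 also gave 1 higher in each form. Leaving out single libraries gave 292 to 728 higher and 98 to 364 lower genes in the average, 23 to 115 higher and 17 to 77 lower same-way genes, and 0 to 30 higher and 0 to 3 lower in each form. The same-way counts passed 1.5 times the main value in either direction without OVA replicate 2 (23 higher, 17 lower), ERY1-OVA replicate 2 (24 higher), ERY1-OVA replicate 3 (75 lower), SIINFEKL replicate 1 (115 higher, 77 lower), TER119-SIINFEKL replicate 2 (28 higher) and TER119-SIINFEKL replicate 3 (27 higher). The cause of these shifts was not tested. A lone remaining SIINFEKL library took its spread from the other groups.

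Over 78 named genes 1681 values kept direction and side of the threshold, 319 lost the call, 5 gained it and 14 changed sign, none of them called. Leaving out single libraries moved Tbx21 from -0.32 to 0.033 (without SIINFEKL replicates 2 and 1), Eomes from -0.31 to 0.71 (without SIINFEKL replicates 1 and 2), Prf1 from -0.41 to 0.020 (without SIINFEKL replicates 1 and 2), Gzmb from -0.41 to 0.28 (without SIINFEKL replicates 1 and 2) and Ifng from -0.29 to 0.52 (without ERY1-OVA replicates 3 and 1). Gzmb was 0.059 without OVA replicate 1 and TER119-SIINFEKL replicate 1 together, and Ifng -0.088 with the length and GC correction.

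With the replicate number as a block, the average gave 493 higher and 244 lower genes, the same-way rule 40 and 26, each form 2 and 0, the difference between forms 1960 and 1648, and Ifng -0.16. The numbers did not pair the libraries consistently. Of 26 same-numbered pairs 14 had deviations correlated over 0.1 (median 0.13, range -0.44 to 0.67). Of 52 differently numbered pairs 15 did (median -0.09, range -0.54 to 0.57). Of 14 libraries 6 correlated best with their own number.

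Depth could not be read from the values, so calls of genes under about 1 RPKM, such as Il2ra in the SIINFEKL libraries, have unknown counting error.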

Other observations

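The genes here were picked after their values were seen. Cd38, an ectoenzyme of activated lymphocytes, was called higher in the average (1.03 ± 0.29, limma adjusted p = 0.0423) with effects of 0.94 and 1.11 in the protein and peptide forms, but did not meet the same-way rule. It held 2.76, 1.40 and 1.67 RPKM in OVA and 4.53, 4.13 and 2.42 RPKM in ERY1-OVA, which overlap. With peptide it held 3.27 and 1.15 RPKM in SIINFEKL and 4.73, 4.34 and 3.57 RPKM in TER119-SIINFEKL, which do not.

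Cd22, an inhibitory receptor best known from B cells, had tight groups that followed the antigen rather than targeting alone. It lay between 0.317 and 0.435 RPKM in Naive, 6.41 and 6.97 in OVA, 5.90 and 6.28 in ERY1-OVA, 3.57 and 3.87 in SIINFEKL, and 10.9 and 12.4 in TER119-SIINFEKL. Its averaged difference of 0.73 ± 0.10 (limma adjusted p = 0.00148) came from -0.15 with protein and 1.61 with peptide, and the forms differed by 1.76.

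The AP-1 genes Fos, Jun and Junb were lower on average after targeting but not called (-0.81 ± 0.64, -0.93 ± 0.46 and -0.74 ± 0.41; limma adjusted p = 0.472, 0.245 and 0.300). Libraries within a group spread widely, as with Fos at 33.3, 51.2 and 184 RPKM in ERY1-OVA and 33.7 and 225 RPKM in SIINFEKL. Nr4a2, a relative of Nr4a3, differed by 1.01 ± 0.38 and was not called (adjusted p = 0.13).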
